A study of Mus musculus with 10 samples.

Results

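The FGF receptor family in the anterior fontanelle (AF) was examined through its 5 genes, *Fgfr1*, *Fgfr2*, *Fgfr3*, *Fgfr4* and *Fgfrl1*. These were the rows of the table of counts that carry those symbols, 5 of 23080 genes, and were chosen by name and not by their values. The libraries were made from the AF of mouse embryos at embryonic day E18.5. The dissected piece held fontanelle mesenchyme together with bone, and overlying skin and underlying brain had been taken off. Of the 10 libraries, 5 carried the genotype label WT and 5 the label Wnt1-Cre; Fgfr2fl/fl, a knockout (KO) of *Fgfr2* in neural crest cells. The study's text calls the controls littermates and does not say which libraries share a litter, and a figure of it marks the controls of this experiment as Fgfr2 fl/fl, while their labels say WT. Wnt1-Cre expresses Cre recombinase in the neural crest, from which the frontal bones and the mesenchyme of the AF derive, so the floxed *Fgfr2* allele, described as giving a functional null, is recombined there and is left intact in cells of other origin such as endothelium and blood. The estimated counts per library summed to between 20774667 and 28515434, and genes of ribosomal RNA took 18.7% to 33.6% of them.

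FGF receptors are receptor tyrosine kinases of the cell surface. An FGF ligand bound together with heparan sulfate brings 2 receptor molecules together, and their kinase domains then signal through the adaptor FRS2 to the RAS-ERK and PI3K-AKT pathways. *Fgfr1* is broadly expressed in mesenchyme, *Fgfr2* marks the osteogenic fronts of the calvarial bones, and *Fgfr3* is best known in cartilage, where it restrains growth. *Fgfr4* is best known in liver and in embryonic muscle, and *Fgfrl1* encodes a receptor of the same family that binds FGF but lacks the kinase domain. Activating variants of *FGFR2* cause craniosynostosis syndromes in which sutures fuse early.

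The counts were per gene, so the splice forms of a receptor were added together. For *Fgfr2* this joins forms with different ligands, since alternative exons encode the C-terminal part of the immunoglobulin domain next to the membrane. The IIIb exon marks the form used mainly by epithelium, and mesenchyme mainly uses another exon in its place. In GRCm38 (GENCODE M21) *Fgfr2* lies on the minus strand of chromosome 7, where the IIIb exon is a coding exon at chr7:130199758-130199905 (148 bases, in 10 coding transcripts). It is shown because it identifies the epithelial form, which a gene-level count cannot tell from the others. No part of it is marked in capitals.
Fgfr2 IIIb exon: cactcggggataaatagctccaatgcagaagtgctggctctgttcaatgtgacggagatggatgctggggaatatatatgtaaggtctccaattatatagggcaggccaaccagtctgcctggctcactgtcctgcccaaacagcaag
This exon makes up 3.43% of the longest coding transcript, so most reads from the form fall outside it.

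Of the receptors, *Fgfr2* alone differed between the labels across all genes tested, and it was higher in the libraries labelled KO, which goes against that label. Its count in the WT-labelled libraries was 5400, 6840, 4134, 4782 and 4533 in replicates 1 to 5, or 200.2, 235, 176, 195 and 192 CPM (counts scaled to a common library total and between libraries by TMM). In the KO-labelled libraries it was 6443, 6879, 7589, 7947 and 8077, or 299, 273, 325, 338 and 357 CPM. The lowest KO-labelled library, replicate 2, was above the highest WT-labelled library, replicate 2, so the labels did not overlap. The means were 199.5 ± 21.7 and 318 ± 32.8 CPM (SD, n = 5 each). On the log2 scale the difference was 0.67 with a standard error of 0.090 and a 95% interval of 0.48 to 0.87, a 1.60-fold higher level, and its adjusted p was 0.0487 by edgeR's quasi-likelihood test with Benjamini-Hochberg adjustment.

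The call lies just under the threshold of 0.05. It was kept without WT-labelled replicate 2 (adjusted p = 0.0141) or KO-labelled replicate 2 (0.00900) and lost without any one of the other 8 libraries in edgeR (adjusted p from 0.0831 to 0.260), while the log2 fold change stayed between 0.63 and 0.75. DESeq2's Wald test, which called 0.538% of the genes it tested, gave an adjusted p of 1.73e-09 and limma's voom 0.00966. In edgeR the call was lost with scaling by library size only (adjusted p = 0.152), with no filter on low counts (0.0557), and with a covariate in the fit, either the level of *Xist* (0.0625) or a score of osteoblast genes (0.994). The log2 fold change in these fits was 0.63 with library size only, 0.67 with no filter, 0.66 with *Xist* and 0.75 with the osteoblast score, beside 0.67 in the fit reported. The call was also lost with the replicate number as a block (log2 fold change 0.68, edgeR adjusted p = 0.427), though no source says that a number marks a litter. Over all genes 0.0184% were called, 3 of 16267, and *Fgfr2* was 1 of them, the last by p. The labels did not overlap for 1.48% of all genes, and among the receptors for *Fgfr2* only.

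Because the targeted gene went against its label, the groups are named by their labels throughout. How far the total of *Fgfr2* can check a genotype is limited, since the part of the gene that Cre removes is not given in the sources used here, and counts from outside that part say nothing of its removal. Among the tissue markers, those of osteoblasts had a median log2 fold change of -0.35 by label, those of tendon and ligament 0.35 and those of neuron and glia 0.52, with 0 called after adjustment by edgeR. The neuron and glia value rested on KO-labelled replicate 2, which summed to 402 CPM over these markers against 54.1 to 170.1 CPM in the other KO-labelled and 53.7 to 131 CPM in the WT-labelled libraries, and the median without it was 0.18. With any single library left out the osteoblast median stayed between -0.42 and -0.30 and the tendon and ligament median between 0.29 and 0.50. In bulk tissue, more cells that express a gene and more RNA in each of those cells cannot be told apart. *Ctbp2*, which encodes a transcriptional corepressor, shares 314 exon bases with *Fgfr2* on the same strand, within a single long *Fgfr2* transcript that extends the gene's span to 2.96 Mb. All other annotated transcripts of *Fgfr2* lie within 103.8 kb (chr7:130162451-130266263). *Ctbp2* was at 29.5 to 31.9 CPM in WT-labelled and 29.1 to 34.4 CPM in KO-labelled libraries, and its fitted difference of 0.04 on the log2 scale had a standard error of 0.055 (adjusted p = 0.889 in the same edgeR test).

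*Fgfr1* (chr8:25513654-25575718, plus strand) was the most counted receptor in the WT-labelled libraries and was at the same mean level under both labels, 326 ± 11.6 CPM in WT-labelled and 326 ± 31.1 CPM in KO-labelled libraries (SD, n = 5 each). It had 323, 331, 319.5, 343 and 312 CPM in WT-labelled replicates 1 to 5 and 340.0, 273, 346, 325 and 346 CPM in KO-labelled replicates 1 to 5. The labels overlapped, and KO-labelled replicate 2 was the lowest of all 10. The log2 fold change was 0.0013 with a 95% interval from -0.15 to 0.16 (edgeR, adjusted p = 0.998), and its sign changed with the settings. KO-labelled replicate 2 also held the lowest summed level of the osteoblast markers and the highest of the neuron and glia markers, and the part of these in its *Fgfr1* value was not tested.

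*Fgfr3* (chr5:33721674-33737068, plus strand) was lower on average in the KO-labelled libraries, and the call did not pass adjustment. It was at 71.1, 67.8, 62.3, 61.0 and 48.9 CPM in WT-labelled replicates 1 to 5 and at 53.4, 53.3, 54.2, 50.1 and 54.5 CPM in KO-labelled replicates 1 to 5. WT-labelled replicate 5 lay below every KO-labelled library, while the other 4 WT-labelled libraries lay above all of them. The KO-labelled libraries were also close to one another, with an SD of 1.76 CPM against 8.49 CPM in the WT-labelled ones. The log2 fold change was -0.23 (standard error 0.086, 95% interval -0.42 to -0.04), with an unadjusted p of 0.0213 and an adjusted p of 0.624 by the edgeR test. An unadjusted p under 0.05 was reached by 7.49% of all genes, and by 2 of the 5 receptors, *Fgfr2* and *Fgfr3*. *Fgfr3* shares 998 exon bases with *G630022F23Rik* on the opposite strand, a gene that held at most 8 counts in any library, and no source states that strand was used in counting.

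*Fgfrl1* (chr5:108692382-108706924, plus strand) was at 28.1, 28.8, 23.6, 26.9 and 24.3 CPM in the WT-labelled libraries and at 28.3, 27.4, 30.9, 26.8 and 28.6 CPM in the KO-labelled ones. Every KO-labelled library was above the WT-labelled mean of 26.4 CPM, and the labels overlapped. The log2 fold change of this kinase-less receptor was 0.11 (95% interval -0.04 to 0.25, edgeR adjusted p = 0.737).

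*Fgfr4* (chr13:55152640-55168759, plus strand) had few counts in this tissue. It had 14, 36, 16, 4 and 14 counts in WT-labelled replicates 1 to 5 and 18, 21, 12, 14 and 8 counts in KO-labelled replicates 1 to 5. These correspond to 0.163 to 1.23 CPM and 0.353 to 0.836 CPM, so the KO-labelled range lay within the WT-labelled one and no difference was detected. The 95% interval of its log2 fold change ran from -0.98 to 0.91 (edgeR, adjusted p = 0.991). The summed level of 8 skeletal muscle markers was 487 CPM in WT-labelled replicate 2, which had the most *Fgfr4*, and 430.4 CPM in KO-labelled replicate 1, against 12.2 to 96.2 CPM in the other 8 libraries. Of these markers *Myod1* and *Myf5* were at 0 in at least 1 library of each label, and the part of muscle in the *Fgfr4* counts was not tested.

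**Figure D1:**
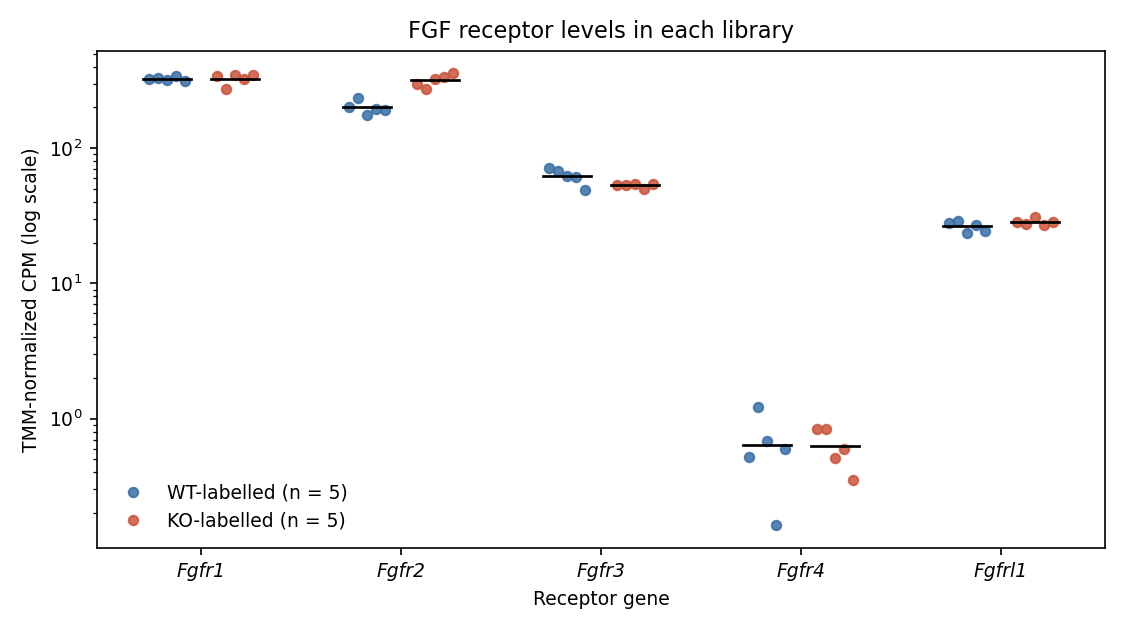
Level of each receptor gene in TMM-normalized CPM on a log axis, for the WT-labelled (blue) and KO-labelled (red) libraries, with 1 point per library and a bar at each mean. For *Fgfr2* the KO-labelled points, from 273 to 357 CPM, all lie above the WT-labelled points, from 176 to 235 CPM, while the labels overlap for the other 4 receptors.

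The make-up of the receptor pool was then compared as each receptor's share of the summed counts of the 5 genes in a library, a measure that needs no scaling between libraries. *Fgfr1* had the largest share of the receptor counts in each WT-labelled library, at 51.9%, 49.9%, 54.9%, 54.7% and 54.1% in replicates 1 to 5. In the KO-labelled libraries its shares were 47.1%, 43.4%, 45.7%, 43.9% and 44.0%. The highest KO-labelled share was below the lowest WT-labelled share, and the means were 53.1% ± 2.16 and 44.8% ± 1.54 (SD, n = 5 each), a difference of -8.25 percentage points (two-sided exact permutation test over 252 groupings, p = 0.00794, the smallest it can give). This fall in share came with no fall in the mean level of *Fgfr1*.

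*Fgfr2* took 32.1%, 35.4%, 30.2%, 31.2% and 33.2% of the receptor counts in the WT-labelled libraries and 41.5%, 43.6%, 42.9%, 45.7% and 45.4% in the KO-labelled ones. Its mean share was 32.4% ± 1.98 against 43.8% ± 1.74, higher by 11.4 points with no overlap (exact permutation test, p = 0.00794). The exact (Clopper-Pearson) 95% binomial interval was 31.4% to 32.8% for WT-labelled replicate 1 and 40.7% to 42.2% for KO-labelled replicate 1. Such intervals cover counting error only, and these were narrower than the range over libraries.

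*Fgfr3* held 11.4%, 10.2%, 10.7%, 9.74% and 8.47% in WT-labelled replicates 1 to 5 and 7.40%, 8.50%, 7.17%, 6.76% and 6.93% in KO-labelled replicates 1 to 5. Only WT-labelled replicate 5 and KO-labelled replicate 2 crossed, at 8.47% and 8.50%, and the mean share was lower by 2.76 points in the KO-labelled libraries, a signed difference of -2.76 (exact permutation test, p = 0.0159). *Fgfrl1* held 4.06% to 4.51% and 3.61% to 4.37% (difference of -0.359 points, exact permutation p = 0.0794). *Fgfr4* held 0.0261% to 0.186% and 0.0449% to 0.133% (exact permutation p = 0.651). These 5 tests are unadjusted, and since shares add up to a whole, a higher share of *Fgfr2* lowers the others.

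**Figure D2:**
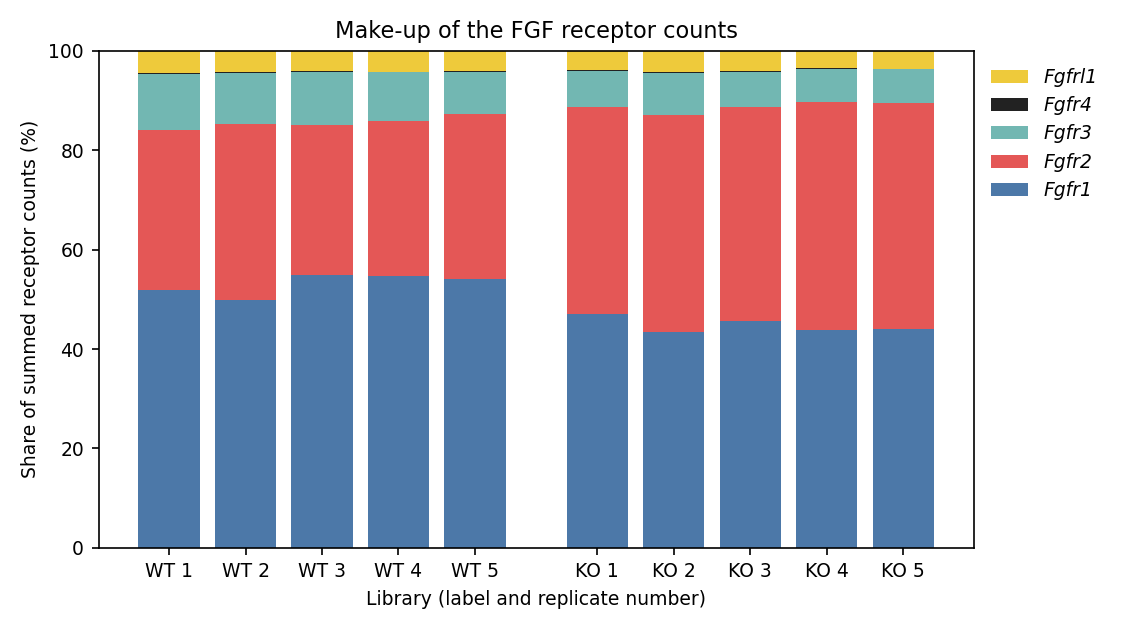
Share of each receptor gene in the summed counts of the 5 receptors, as a stacked bar from 0 to 100% for each library, WT-labelled replicates at left and KO-labelled replicates at right. The *Fgfr2* segment spans 30.2% to 35.4% in the WT-labelled and 41.5% to 45.7% in the KO-labelled libraries, and the *Fgfr1* segment is shorter in every KO-labelled library.

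The remaining receptors were then compared with *Fgfr2* taken out of the sum. *Fgfr1* held 78.5% ± 1.79 of the counts in the WT-labelled and 79.8% ± 1.60 in the KO-labelled libraries, a difference of 1.25 points (SD, n = 5 each; exact permutation p = 0.262). *Fgfr3* held 15.0% ± 1.59 and 13.1% ± 1.11 (difference of -1.88 points, exact permutation p = 0.0635). *Fgfrl1* held 6.35% ± 0.356 and 6.98% ± 0.480 (difference of 0.636 points, exact permutation p = 0.0556). None of these passed 0.05, the difference of *Fgfr1* and *Fgfrl1* had the opposite sign from that in the full sum, and that of *Fgfr3* kept its sign.

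Ratios between receptors gave the same comparison without a sum. There were 1.65 ± 0.156 *Fgfr1* counts for each *Fgfr2* count in the WT-labelled libraries (1.41 to 1.82) and 1.03 ± 0.0737 in the KO-labelled ones (0.961 to 1.14), with no overlap. The ratio of *Fgfr2* to *Fgfr3* was 3.24 ± 0.463 against 6.0 ± 0.668, also with no overlap and the largest difference of the 6 pairs among the receptors other than *Fgfr4* (log2 difference 0.89, exact permutation p = 0.00794). The ratio of *Fgfr3* to *Fgfrl1*, of which neither gene was called, was 2.36 ± 0.242 in WT-labelled and 1.87 ± 0.0727 in KO-labelled libraries and did not overlap (2.01 to 2.63 against 1.75 to 1.94, log2 difference -0.33, exact permutation p = 0.00794). The ratios of *Fgfr1* to *Fgfr3* and of *Fgfr1* to *Fgfrl1* overlapped between the labels (exact permutation p = 0.111 and 0.135). These p-values are unadjusted over the 6 pairs.

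The summed level of all 5 receptors was 614 ± 35.4 CPM in the WT-labelled libraries (578 to 663) and 727 ± 60.2 CPM in the KO-labelled ones (628 to 786), 1.18 times the WT-labelled mean. The ranges overlapped. Of the difference in mean sum of 112 CPM, *Fgfr2* made up 119 CPM, *Fgfr3* -9.12 CPM, *Fgfrl1* 2.05 CPM and *Fgfr1* 0.297 CPM. Without *Fgfr2* the sums were 415 ± 18.8 and 408 ± 32.3 CPM.

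Levels of different genes were compared per length, as CPM per kb of the longest coding transcript. In the WT-labelled libraries the order was *Fgfr1* (64.6 ± 2.30 CPM per kb), *Fgfr2* (46.3 ± 5.02), *Fgfr3* (14.7 ± 2.0), *Fgfrl1* (11.3 ± 0.980) and *Fgfr4* (0.192 ± 0.116). *Fgfr1* and *Fgfr2* did not overlap there (61.9 to 68.0 against 40.8 to 54.4 CPM per kb), and neither overlapped with *Fgfr3*, whereas *Fgfr3* (11.5 to 16.7) and *Fgfrl1* (10.2 to 12.4) did. On this scale *Fgfr1* stood at the 96.7th percentile of the 15991 tested genes with a length, *Fgfr2* at the 95.4th, *Fgfr3* at the 82.8th, *Fgfrl1* at the 77.5th and *Fgfr4* at the 3.73rd.

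In the KO-labelled libraries *Fgfr2* came first at 73.9 ± 7.60 CPM per kb (97.1st percentile), ahead of *Fgfr1* at 64.7 ± 6.17. Their ranges over libraries overlapped (63.4 to 82.7 and 54.1 to 68.7 CPM per kb), but within each library *Fgfr2* was above *Fgfr1*, in 5 of 5 KO-labelled against 0 of 5 WT-labelled libraries. This order depended on the length used. Per kb of the union of all annotated exons *Fgfr1* was above *Fgfr2* in all 10 libraries, and *Fgfrl1* above *Fgfr3* on average under both labels, and in counts *Fgfr2* was above *Fgfr1* in 3 of the 5 KO-labelled libraries. The change of the ratio between the labels is the same on each scale, since a length multiplies both labels alike. *Fgfr3* (12.5 ± 0.414) and *Fgfrl1* (12.2 ± 0.682) could not be ranked in the KO-labelled libraries.

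**Figure D3:**
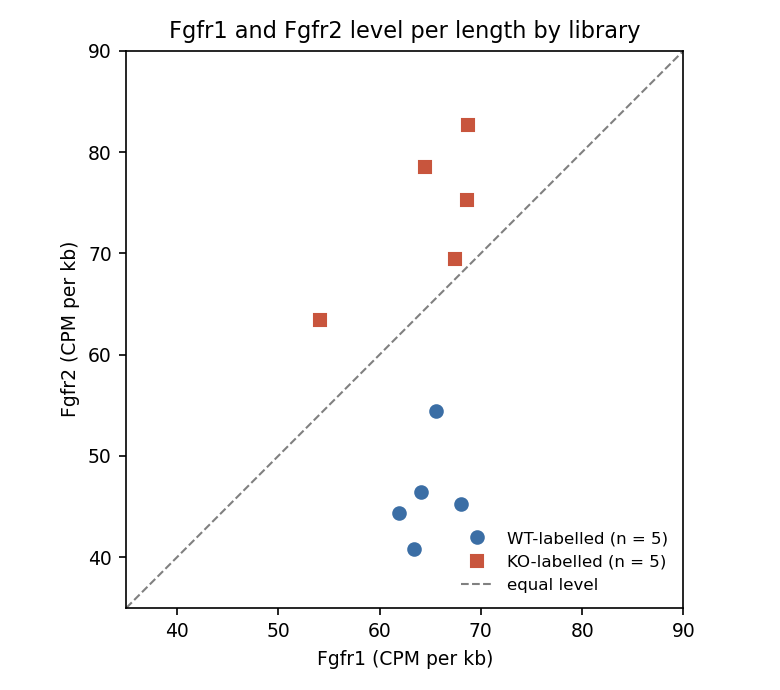
Level of *Fgfr1* (horizontal axis) and *Fgfr2* (vertical axis) in each library, both in CPM per kb of the longest coding transcript, with a dashed line where they are equal. The 5 WT-labelled libraries lie below the line and the 5 KO-labelled libraries above it, at similar *Fgfr1* levels except KO-labelled replicate 2 at 54.1.

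Marker genes gave the tissue behind these values. All 10 osteoblast and all 6 cartilage markers of the lists used passed the filter. So did all markers of endothelium, meninges, neuron and glia, erythroid cells, and macrophage and osteoclast. Of the 8 epidermal markers 6 passed, and the list summed to 12.6 to 33.7 CPM in a library. The endothelial list summed to 414 to 527 CPM in WT-labelled and 435 to 527 CPM in KO-labelled libraries. For meninges the sums were 274 to 373 and 292 to 417 CPM, and for macrophage and osteoclast 1026 to 1605 and 1164 to 1331 CPM. All 10 osteoblast markers had a negative log2 fold change (median -0.35), 7 of them at an unadjusted p under 0.05 (against 7.49% of all genes) and 0 at an adjusted p under 0.05 by edgeR. Among them were *Ibsp*, which encodes bone sialoprotein (log2 fold change -0.58), *Sp7*, which encodes the transcription factor osterix (-0.24), and *Alpl*, which encodes tissue-nonspecific alkaline phosphatase (-0.38). Their summed level was 66113 to 77708 CPM in WT-labelled and 54054 to 78413 CPM in KO-labelled libraries, mostly *Col1a1*, the chain of type I collagen. The 5 tendon and ligament markers summed to 149 to 193 CPM in WT-labelled and 202 to 279.8 CPM in KO-labelled libraries, without overlap. Of the 5, 4 were higher at an unadjusted p under 0.05, among them *Tnmd*, which encodes tenomodulin (log2 fold change 0.58), *Scx*, which encodes the transcription factor scleraxis (0.35), and the matrilin gene *Matn4* (0.64), with *Thbs4* at -0.56 (1.31 without WT-labelled replicate 2) and 0 called after adjustment. Of the 6 cartilage markers 1 had an unadjusted p under 0.05, the type II collagen gene *Col2a1*, at 47.3 to 68.5 CPM in WT-labelled and 70.7 to 153 CPM in KO-labelled libraries (log2 fold change 0.88, edgeR adjusted p = 0.302). Of the 6, 4 had a positive and 2 a negative log2 fold change (median 0.17). The cartilage list summed to a mean of 1487 CPM in WT-labelled (1320 to 1649) and 1422 CPM in KO-labelled libraries (1221 to 1638), with overlap. The part of the tendon and ligament markers in the *Fgfr2* difference was not tested. With an osteoblast score in the fit the log2 fold change of *Fgfr2* was 0.75 with a standard error of 0.14 (edgeR adjusted p = 0.994). That fit called 0 of all genes. In the fit without the score the log2 fold change was 0.67 with a standard error of 0.090.

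The receptors were set beside 86 other FGF pathway genes in 4 lists, of which 71 were tested. At an adjusted p under 0.05 edgeR called 0 of the 71, and 4 had an unadjusted p under 0.05 (5.63%, against 7.49% of all genes). DESeq2 called 1, *Fgf1* (adjusted p = 0.0403), and limma's voom 0. The median log2 fold change was 0.02 over the lists and 0.00 over all genes tested.

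Among the ligands, 14 of 18 were in the table and 7 were tested, of which 3 had an unadjusted p under 0.05 (42.9%, against 7.49% of all genes) and 0 an adjusted p under 0.05 by edgeR. These were *Fgf1*, *Fgf18* and *Fgf15*. *Fgf1*, which can bind all FGF receptors, was at 13.8 ± 3.09 CPM in WT-labelled and 9.01 ± 1.06 CPM in KO-labelled libraries (SD, n = 5 each), lower by label with a fitted log2 value of -0.61 (edgeR adjusted p = 0.336). *Fgf18*, a ligand of mesenchymal receptor forms in bone, was at 4.05 to 7.99 CPM and 5.64 to 11.8 CPM, with overlap (log2 fold change 0.62, edgeR adjusted p = 0.568). *Fgf2*, the most counted ligand, was at 22.2 to 29.8 CPM and 21.7 to 30.1 CPM. *Fgf15*, an endocrine ligand, had the highest log2 fold change of the lists, 2.60 (edgeR adjusted p = 0.650). This value rested on KO-labelled replicate 3 and was 0.35 without that library. The KO-labelled group reached 12.6 CPM, with a median of 0.954 CPM.

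Co-receptors and membrane partners held 17 tested genes with 0 at an unadjusted p under 0.05. The most counted were *Hspg2*, which encodes the heparan sulfate proteoglycan perlecan, at 972 ± 84.5 and 1013 ± 150 CPM, and *Gpc1*, a glypican, at 377 ± 35.4 and 380 ± 38.2 CPM. The smallest p values were those of *Cdh2*, which encodes N-cadherin (log2 fold change -0.11), *L1cam*, a neural adhesion molecule (0.77), and *Flrt1* (-0.30), with adjusted p from 0.663 to 0.687 in the edgeR test. The value of *L1cam* rested on KO-labelled replicate 2, at 38 CPM against a KO-labelled median of 11.3 CPM, and was 0.21 without that library. That of *Flrt1* was -0.13 without WT-labelled replicate 3.

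All 29 adaptors and transducers were tested, 0 of them at an unadjusted p under 0.05, and their log2 fold changes stayed between -0.15 and 0.19. *Frs2*, which encodes the docking protein bound by the receptors, was at 43.4 to 45.2 CPM in WT-labelled and 40.1 to 43.5 CPM in KO-labelled libraries (log2 fold change -0.08, edgeR adjusted p = 0.670). *Gab2*, a docking protein further down, had a log2 fold change of -0.15. *Akt1* and *Pik3r1*, the most counted of the list, had 0.00 and 0.01.

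Of the 18 tested ERK targets and feedback inhibitors, 11 had a negative and 7 a positive log2 fold change (median -0.08), and 1 had an unadjusted p under 0.05. This was *Fos*, an immediate early gene, at 19.0 ± 7.55 and 12 ± 3.16 CPM (log2 fold change -0.65, -0.39 without WT-labelled replicate 3, edgeR adjusted p = 0.634). *Egr1*, another immediate early gene, *Etv5*, an ETS factor that FGF signaling induces, and *Ccnd1*, which encodes cyclin D1, had log2 fold changes of -0.22, -0.16 and 0.22, and *Spred1*, an inhibitor of RAS-ERK signaling, -0.01 (edgeR adjusted p from 0.634 to 0.985 over the named genes of the list). *Ccnd1* was at 0.03 without KO-labelled replicate 3, and *Etv5* at -0.05 without KO-labelled replicate 4.

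**Figure D4:**
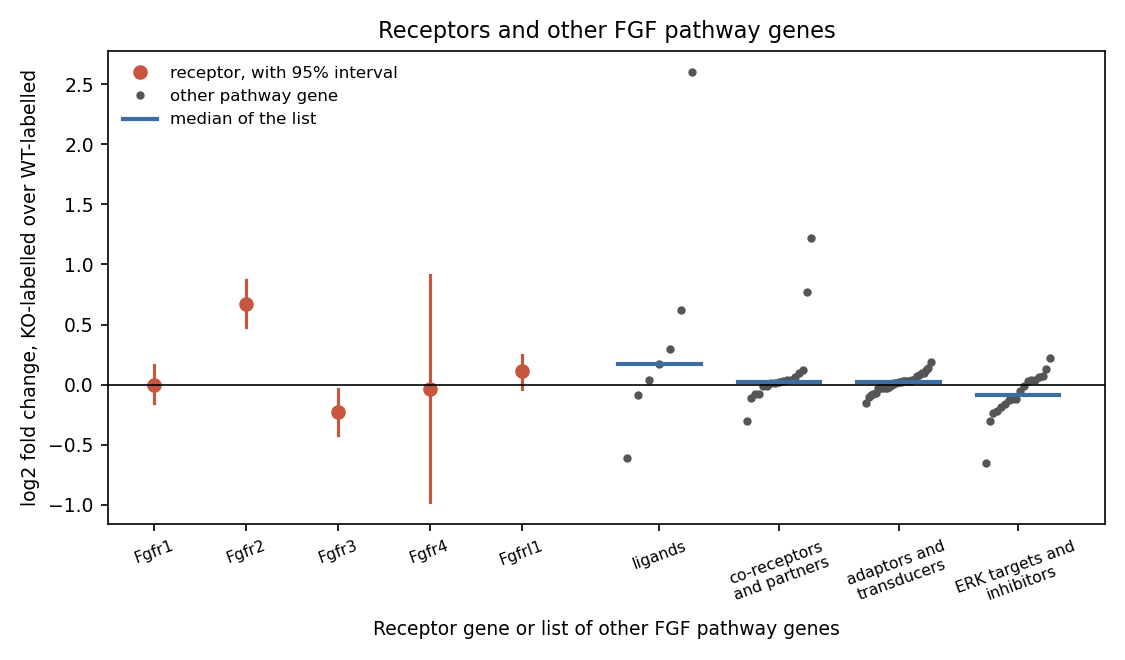
Log2 fold change (KO-labelled over WT-labelled, edgeR) of each receptor with its 95% interval (red) and of the tested genes of the 4 other FGF pathway lists (grey points, with a blue bar at each median). The interval of *Fgfr2*, 0.48 to 0.87, and that of *Fgfr3*, -0.42 to -0.04, leave out 0, and the medians of the other lists lie between -0.08 and 0.17.

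How the receptors varied from library to library within a label was described by the correlation of log2 CPM over the 10 libraries after the mean of each label was subtracted. The points share the library, its depth and its cell content. Among the receptors, *Fgfr3* and *Fgfrl1* (r = 0.66), *Fgfr1* and *Fgfr2* (0.60) and *Fgfr2* and *Fgfrl1* (0.58) varied most alike, and *Fgfr1* and *Fgfr4* least (-0.40). Among 11015 genes with a mean of at least 5 CPM, those most like *Fgfr2* were *Inf2*, a formin (r = 0.979), *Kars*, lysyl-tRNA synthetase (0.967), and *Mtbp* (0.966), with log2 fold changes of only -0.04 to -0.06 between the labels. Those most like *Fgfr1* were *Larp6*, an RNA-binding protein that binds collagen mRNAs (0.965), *Iqgap1*, a scaffold protein (0.964), and *Furin*, a proprotein convertase (0.962). For *Fgfr3* they were *Fbxo42* (0.935), *Yif1b* (0.932) and *Dop1a* (0.916), for *Fgfrl1* *Olfml2a* (0.955), *Washc3* (0.930) and the leptin receptor *Lepr* (0.928), and for *Fgfr4* *Slc7a5* (0.921), *Rgma* (0.918) and *Sorbs2* (0.912). Without the 2 libraries farthest from the median of the receptor, r was 0.952 for *Inf2* and 0.685 for *Rgma*. These are the highest of many correlations over few libraries and are given as a description.

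**Figure D5:**
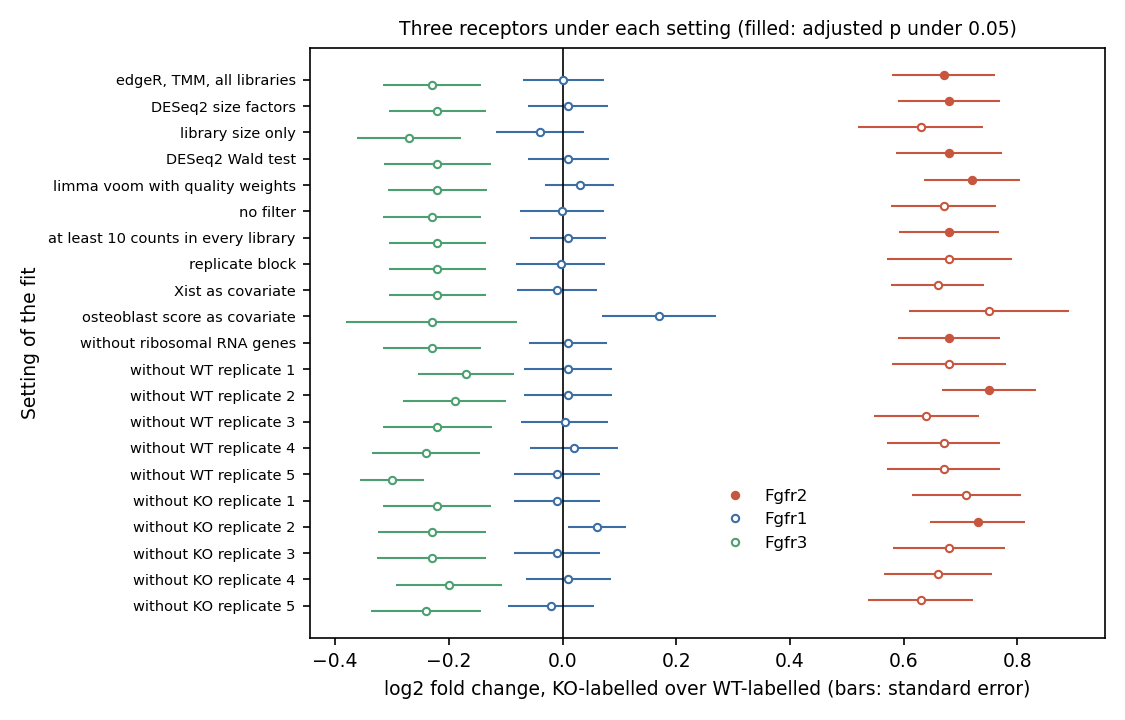
Log2 fold change (KO-labelled over WT-labelled) of *Fgfr2* (red), *Fgfr1* (blue) and *Fgfr3* (green) with standard errors, for the fit on all libraries and each alternative, filled where the adjusted p is under 0.05. *Fgfr2* stays between 0.63 and 0.75 while its call comes and goes, *Fgfr3* stays between -0.30 and -0.17 without a call, and *Fgfr1* lies on both sides of 0.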

How the data were processed

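RNA of the AF region was made into stranded libraries and sequenced as single-end reads of 50 bases. The authors deposited 1 table of estimated counts per gene, not scaled between libraries (67.2% of values whole within 1e-09, lowest gene sum 10). The submitters' processing notes name mm10 and Partek. The aligner, counter and strand setting are not given in the sources used here. Of 22533 symbols found in GENCODE M21 (GRCm38), 22296 had the same position. Libraries were matched to columns by library name, and 0 columns were left unmapped. Replicates of a label differed by more than sampling noise.

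Counts were rounded and tested with edgeR 4.0.16 (R 4.3.3) by TMM, its expression filter (16267 tested, 6813 left out) and the quasi-likelihood test without covariates, adjusted over all genes at 0.05. All 5 receptors passed the filter. Log2 CPM used a prior count of 0.5. Shares and ratios were compared by two-sided exact permutation tests, figures drawn with matplotlib 3.10.9. The labels do not say that replicates came from separate litters, so p-values measure the spread between these samples. Alternatives used DESeq2 1.42.0, limma 3.58.1, other filters and scalings, covariates, the replicate number as a block, other lengths and denominators, and each library left out. The script was tested on simulated counts.

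The receptors, the pathway and marker lists and the tests were chosen with earlier results of these data known. Besides the receptors, genes named were, in each pathway list, those called, the 3 with the smallest p and the 2 with the highest level, and the 3 genes most like each receptor; 1 item that this rule names is not reported here. *Ctbp2*, *G630022F23Rik*, *Xist*, *Col1a1*, *Ibsp*, *Alpl*, *Col2a1*, *Tnmd*, *Matn4*, *Thbs4*, *Myod1* and *Myf5* were named after their values were seen.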

Additional observations from a re-analysis of the deposited data

Results flagged for a closer look

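In groups of 5 libraries, a library was marked where its gap to the nearest other exceeded 0.71 of the group's range (Dixon's 95% critical value). Of 58 such groups 4 were marked, and chance marks about 1 in 20. KO-labelled replicate 2 stood apart in log2 CPM of *Fgfr1* at 8.09, against 8.35 to 8.44 in the other KO-labelled libraries. Without it the log2 fold change of *Fgfr1* was 0.06. KO-labelled replicate 4 stood apart in *Fgfr3* at 5.65 (others 5.74 to 5.77), a small step within a narrow group. WT-labelled replicate 4 stood apart in *L1cam* at 2.50 (others 3.28 to 3.55), and KO-labelled replicate 3 in *Ccnd1* at 7.19 (others 6.32 to 6.53).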

How the results depend on the processing

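The log2 fold change of *Fgfr2* was 0.67 and kept its direction in all 20 alternatives, but edgeR's call was lost with library size only (0.63), no filter (0.67), the replicate number as a block (0.68, adjusted p = 0.427), *Xist* as a covariate (0.66) and an osteoblast score as a covariate (0.75), and with 8 of 10 single libraries left out (0.63 to 0.71, or 0.63 to 0.75 with the other 2); the cause was not tested. The number of receptors called was then 0, against 1. The study speaks of littermate pairs, but no source says that a replicate number marks one. Deviations of same-numbered libraries correlated at -0.203, 0.139, -0.211, 0.0268 and -0.142, which does not settle which libraries are littermates. *Fgfr1* was reversed, always near 0, with library size only (-0.04), no filter (-0.00079), the replicate block (-0.0035), *Xist* (-0.01) and 4 of 10 single libraries left out (-0.02 to 0.06 over all 10), and was at 0.17 with the osteoblast score. *Fgfr4* was reversed with voom (0.10), the replicate block (0.08) and single libraries left out (-0.28 to 0.37), was at -1.48 with the osteoblast score, and could not be fitted with at least 10 counts in every library. *Fgfr3* (-0.30 to -0.17) and *Fgfrl1* (0.06 to 0.15) kept their sign in all 20.

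Of all genes, 3 were called, against 1 with library size only, the replicate block or *Xist*, 0 with the osteoblast score, 95 by DESeq2, and 1 to 6 with single libraries left out. FGF pathway genes called were 0, and 1 by DESeq2.

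The higher share of *Fgfr2* (11.4 points) was 10.8 to 12.1 points with single libraries left out, at an exact p of 0.00794, the smallest either design can give. Paired by replicate number, where p cannot go under 0.0625, *Fgfr1* (-8.25), *Fgfr2* (11.4) and *Fgfr3* (-2.76) were at that value. Without *Fgfr2* in the sum, *Fgfr1* (1.25), *Fgfr4* (0.00266) and *Fgfrl1* (0.636) were reversed and *Fgfr3* (-1.88) passed 0.05 no longer. *Fgfr4* ran from -0.0338 to 0.00623 and *Fgfrl1* from -0.470 to -0.281 with single libraries left out, and *Fgfrl1* passed per length (-0.757, p = 0.0317, exact permutation) and without KO-labelled replicate 2 (p = 0.0238). The summed level kept 1.15 to 1.22 times. *Fgfr2* was above *Fgfr1* in 5 KO-labelled libraries per longest transcript, 0 per exon union and 3 in counts, alternatives chosen after seeing the data, as were shares by exon union and the marker and pathway genes with single libraries left out. *Fgfr4* had 4 to 36 counts per library, so its values also carry counting error.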
